A study of Mus musculus with 12 samples.

Results

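Cortical mRNA of co-treated CD mice (VERCUR-CD) was compared with that of vehicle-treated wild-type mice (VEH-WT), gene by gene, to see what still differed from the control after treatment. Each group had 3 mice, so the comparison used 6 of the 12 mice sequenced. The other 6 were vehicle-treated CD (VEH-CD) and co-treated wild-type (VERCUR-WT) mice. CD mice carry a heterozygous deletion of the Williams-Beuren syndrome critical region (WBSCR), from Gtf2i to Fkbp6 on chromosome 5, in every cell. VERCUR is the combination of curcumin, a polyphenol of turmeric, and verapamil, a blocker of L-type calcium channels. The labels give curcumin at 60 mg/kg/day and verapamil at 10 mg/kg/day, drunk for 1 month from 8 weeks of age, and a strain of C57Bl6 and an age of 16 weeks for all mice. The study's methods give a lower verapamil dose and a younger age. They also state that the mice were males of a cross with Thy1-YFP mice, in which a Thy1 promoter drives a fluorescent protein in pyramidal neurons. They add that the frontal cortex was taken and that the background was mostly, not wholly, C57Bl6. Differences of background between the groups were not tested. In the labels the control mice are untreated, and in the study's methods they received vehicle. VERCUR-CD and VEH-WT differ in genotype and in treatment, and the share of each cannot be told apart in this comparison alone.

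The deleted genes encode proteins that act on actin, synaptic vesicles, microtubules, translation and chromatin. Limk1 phosphorylates cofilin in dendritic spines, Stx1a is a plasma membrane SNARE of neurotransmitter release, Clip2 binds microtubules, Eif4h assists the helicase of translation initiation, and Gtf2i, Gtf2ird1, Baz1b and Bcl7b act in transcription and chromatin. In the cortex, neuronal activity induces the immediate early genes, such as Fos and the Egr factors, through calcium entry and the cAMP response element, which makes them a sensitive readout of recent firing.

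The values are reads per gene divided by 1 factor per sample (normalized counts). The reads counted per mouse ranged from 41960000 to 56480000 in VEH-WT and from 51020000 to 56460000 in VERCUR-CD. Log2 values of mice of the same group had correlations across genes from 0.9911 to 0.9936 in VEH-WT and from 0.9856 to 0.9924 in VERCUR-CD, and no library appeared to be deposited in duplicate. A gene was called a differentially expressed gene (DEG) with an adjusted p under 0.05, from limma on log2(normalized count + 1) with the Benjamini-Hochberg method, and a change of more than 25% in either direction. This scale understates changes of genes with low counts. Of the 17111 genes tested, 34 were DEGs (0.199%), 9 higher (0.0526%) and 25 lower (0.146%) in VERCUR-CD. At an unadjusted p under 0.05 stood 1485 genes (8.68%), 3.92% higher and 4.76% lower. The median log2 fold change of all genes was 0.00, and 49.5% were under 0. Excitatory neuron markers were abundant in all mice, with sums over 11 genes from 301145 to 324769 normalized counts in VEH-WT and from 298478 to 369868 in VERCUR-CD. Striatal neuron markers varied widely within both groups, with sums over 10 genes of 20441, 20647 and 39077 normalized counts in VEH-WT and of 10811, 12340 and 34485 in VERCUR-CD. In bulk tissue, fewer cells of a type and less RNA per cell cannot be told apart.

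All 19 WBSCR genes analysed were lower in VERCUR-CD, and 16 of them were DEGs, against 0.146% of all genes called lower. The 3 VERCUR-CD mice lay below the 3 VEH-WT mice in 19 of 19 genes, against 7.33% of all genes. The median log2 fold change was -1.02, and means ran from 37.3% of the VEH-WT mean in Fzd9 to 61.7% in Lat2, with a median of 49.1%. Fkbp6 was not analysed here.

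Gtf2i, a multifunctional transcription factor also known to limit calcium entry, had 11904, 12750 and 12036 normalized counts in VEH-WT and 6249, 5916 and 6017 in VERCUR-CD (log2 fold change -1.01 ± 0.05 SE, adjusted p = 5.63e-07). Limk1 had 4240, 4282 and 4567 against 1840, 1823 and 1716 (-1.28 ± 0.06, adjusted p = 2.47e-07), so its VERCUR-CD mean was 41.1% of the VEH-WT mean. Stx1a had 18596, 18257 and 17106 against 8873, 8417 and 9946 (-0.99 ± 0.08, adjusted p = 2.33e-05). In all 3 genes the gap between the groups was several times the spread within them. Clip2 (-1.24 ± 0.07) and Fzd9, a Wnt receptor of the Frizzled family (-1.41 ± 0.14), were the other DEGs furthest below -1, and Gtf2ird1 was the mildest DEG of the region (-0.82 ± 0.09). Eif4h, Baz1b and Bcl7b lay between -1.02 and -1.07.

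Lat2, an adaptor of immune receptor signaling, Eln, which encodes elastin, and Mlxipl, a glucose-responsive transcription factor, missed the threshold. They were among the least abundant genes of the region. Lat2 had 74.0, 87.8 and 66.9 normalized counts in VEH-WT and 52.4, 39.6 and 49.1 in VERCUR-CD (adjusted p = 0.212). Eln (adjusted p = 0.274) and Mlxipl (adjusted p = 0.106) were at 49.9% and 54.7% of the VEH-WT mean. The annotated exons of Rfc2 and Lat2, and of Bud23 and Dnajc30, overlap, and reads there could count for either gene. VEH-CD was compared with VERCUR-WT in the same way, in the other 6 mice, with the treatment exchanged between the genotypes. There the groups did not overlap in 19 of the 19 genes, all lower in VEH-CD (5.1% of all genes), 16 were called (0.123% of all genes called lower), and the median log2 fold change was -0.94.

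**Figure D1:**
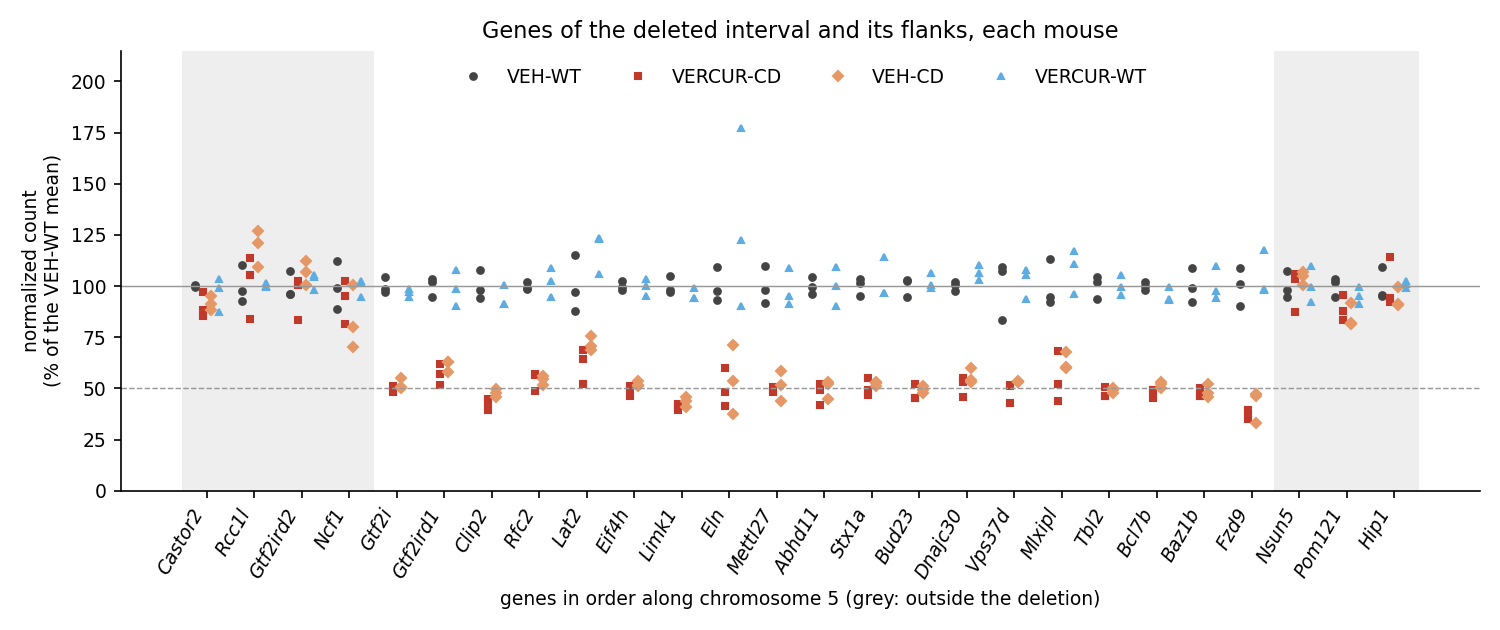
Normalized count of each mouse as a percentage of the VEH-WT mean (vertical axis) for the deleted genes and the flanking genes in order along chromosome 5, with 1 point per mouse. The CD mice of both treatments lie well below the wild-type mice over the deleted interval, from 37.3% in Fzd9 to 61.7% in Lat2 for the VERCUR-CD means, and the 7 flanking genes shown, on grey, lie around the VEH-WT level. Trim50, at 0 in VEH-WT, is left out.

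Of the 8 flanking genes, 1 was called. Trim50 is an E3 ubiquitin ligase gene on the plus strand of chr5:135353295-135368005 (GRCm38), 102065 bases beyond the end of Fzd9, the last deleted gene analysed. The deletion runs on to Fkbp6, so Trim50 is nearer than that to the deleted end. Trim50 was at 0, 0 and 0 normalized counts in VEH-WT and at 276, 281 and 253 in VERCUR-CD. With a floor of 3 reads per library for VEH-WT, the VERCUR-CD mean of 269.8 was at least 85.8-fold higher. VEH-CD mice had 294, 230 and 248 and VERCUR-WT mice 0, 1.85 and 0, so Trim50 reads were near absent from both wild-type groups. No stretch of 100 bases of its annotated transcripts occurs in another gene. The other 7 flanking genes were not called by limma or by voom, and 2 of them had an unadjusted p under 0.05. Pom121, a nuclear pore gene beside Trim50, and Castor2, an arginine sensor upstream of mTORC1, had log2 fold changes of -0.17 and -0.15 (adjusted p = 0.516 and 0.568), and Ncf1, Gtf2ird2, Nsun5, Hip1 and Rcc1l lay between -0.10 and 0.00.

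Genes whose products work with those of the deleted genes had medians near 0. No member was called among 13 cofilin pathway genes around Limk1, 12 SNARE genes around Stx1a, 9 initiation factors around Eif4h, 9 plus-end genes around Clip2, 10 chromatin genes around Baz1b and Bcl7b and 9 Frizzled receptors, and limma voom on recovered reads called none either. Their median log2 fold changes were -0.03, -0.03, 0.00, -0.02, 0.04 and 0.06, against 0.00 over all genes. At an unadjusted p under 0.05 stood 0 of the cofilin genes, 1 of the SNARE genes, 3 of the initiation factors, 1 of the plus-end genes, 1 of the chromatin genes and 1 of the Frizzled receptors. Cfl1, the cofilin that Limk1 phosphorylates, had 39812, 38406 and 37776 against 38820, 34524 and 38653 (log2 fold change -0.05, adjusted p = 0.865), and Vamp2, the vesicle SNARE that pairs with Stx1a, had -0.03 (adjusted p = 0.898). The 95% intervals of Cfl1 (-0.19 to 0.08) and Vamp2 (-0.14 to 0.07) exclude a log2 change as large as that of any deleted gene.

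Of the 34 DEGs, 18 lay outside the deleted region, 9 higher and 9 lower, and 14 of them are protein coding. The groups did not overlap in any of the 18, which the call itself makes likely, against 6.56% of all genes apart upwards and 7.33% apart downwards. They are scattered over the genome, apart from Trim50, which flanks the deletion on chromosome 5, and 4 zinc finger genes of 1 stretch of chromosome 2. The members with known roles include Git1 and Ddn of the postsynaptic side, the small RNA Bc1, the mitochondrial enzyme Dmgdh, the stress-responsive Klf2 and Gadd45a, a histone gene and an immunoglobulin gene.

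**Figure D2:**
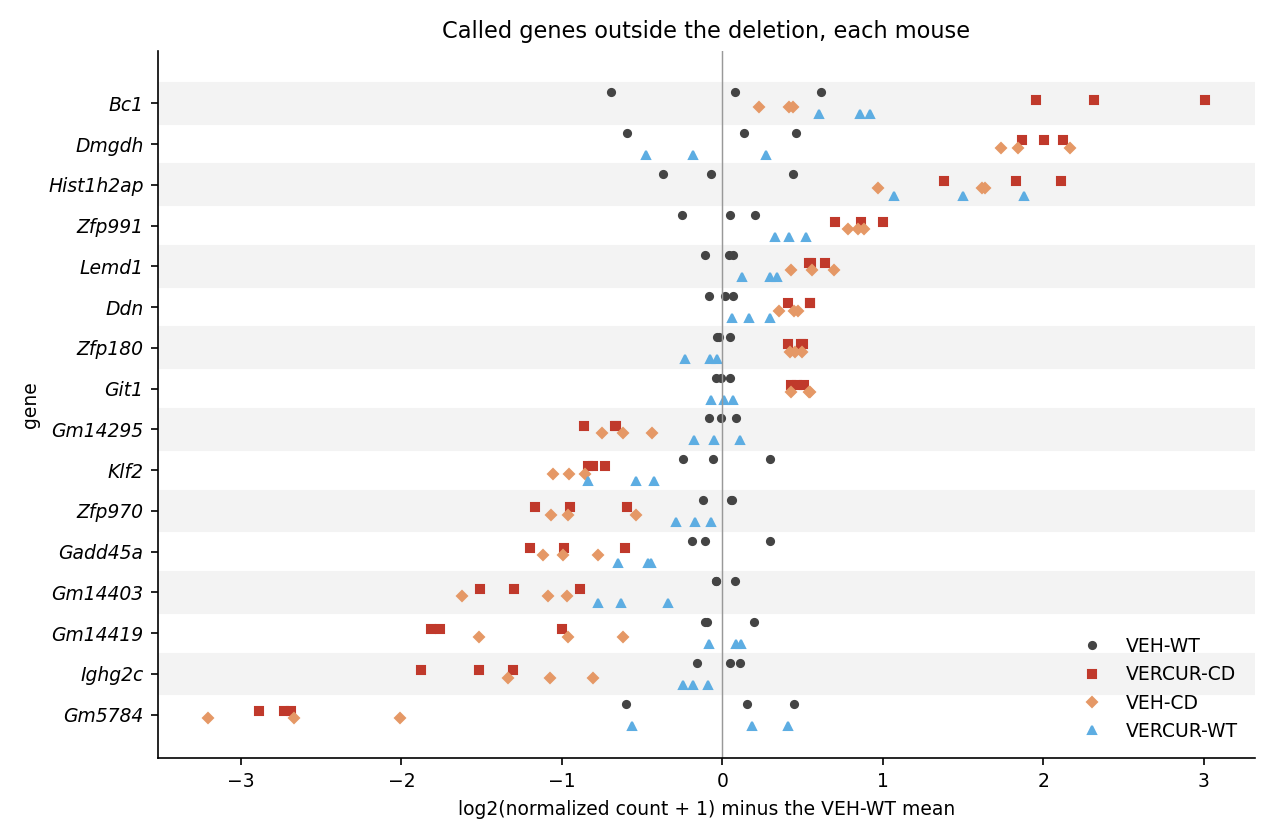
Log2(normalized count + 1) of each mouse minus the mean of the 3 VEH-WT mice (horizontal axis) for 16 of the 18 DEGs outside the deletion, with 1 point per mouse; Trim50 and Gm45351, which are at 0 in all mice of 1 group compared, are left out. VEH-CD points lie beside those of VERCUR-CD in most genes, whereas in Bc1 they lie with the wild-type mice.

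Among synaptic genes, Git1 and Ddn were higher in VERCUR-CD. Git1, on chr11:77493562-77507786, encodes a GTPase-activating scaffold that brings PIX and PAK proteins to dendritic spines. It had 31022, 29102 and 29731 normalized counts in VEH-WT and 41295, 40226 and 42570 in VERCUR-CD (log2 fold change 0.47 ± 0.06 SE, adjusted p = 0.00132). VEH-CD mice had 43760, 40368 and 43545 and VERCUR-WT mice 28541, 30186 and 31419, so that all 6 CD mice lay above all 6 wild-type mice. The other 7 genes of the Git1, PIX and PAK list were not called by limma or by voom, 0 of them had an unadjusted p under 0.05, and the list's median was -0.02. Arhgef7, which encodes beta-PIX, had a log2 fold change of -0.13 (adjusted p = 0.705).

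Ddn encodes dendrin, whose mRNA is carried into dendrites. It had 69821, 65036 and 72320 in VEH-WT and 91844, 100813 and 100598 in VERCUR-CD (0.50 ± 0.07, adjusted p = 0.00608). Its VEH-CD counts were 95577, 88033 and 93984 and its VERCUR-WT counts 84661, 77463 and 72086, so the CD mice were again above the wild-type mice, with VERCUR-WT nearest to them. Without VEH-WT 2 or VERCUR-CD 3 its adjusted p was 0.0524 or 0.0553. None of 17 postsynaptic scaffold genes and none of 36 glutamate and GABA receptor subunits was called by limma or by voom, with 2 and 4 of them at an unadjusted p under 0.05 and medians of 0.04 and 0.07.

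Bc1 stood apart from the other DEGs. It is a small cytoplasmic RNA of rodent neurons, made by RNA polymerase III, that is carried into dendrites and represses translation there. It lies on the plus strand of chr7:144914470-144914637 (GRCm38) and is 168 bases long in the GENCODE annotation. It is printed with its longest run of A, positions 77 to 99, in capitals. The RNA has no poly(A) tail of its own, and this A-rich part is its best known feature beside the RNA polymerase III promoter. The study made mRNA libraries, and how evenly they recover an RNA without such a tail was not tested.
Bc1: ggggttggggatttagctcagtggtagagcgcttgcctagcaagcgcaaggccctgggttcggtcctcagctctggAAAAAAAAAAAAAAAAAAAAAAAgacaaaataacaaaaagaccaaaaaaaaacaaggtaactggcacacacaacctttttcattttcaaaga
Bc1 had 599, 350 and 867 normalized counts in VEH-WT and 4564, 2202 and 2832 in VERCUR-CD (log2 fold change 2.43 ± 0.29 SE, adjusted p = 0.0014). Its VEH-CD counts were 758, 663 and 768 and its VERCUR-WT counts 862, 1029 and 1073. All 3 VERCUR-CD mice therefore lay above the other 9 mice, as in 0.281% of all genes. Of the 18 DEGs, Bc1 alone had this order. In VEH-CD against VERCUR-WT its log2 fold change was -0.43 (adjusted p = 0.988). Against VEH-CD, which carries the same deletion without the treatment, VERCUR-CD was 2.07 ± 0.29 higher on the log2 scale, with an adjusted p of 0.159 that ranged from 7.39e-05 to 0.930 over the alternatives, and against VERCUR-WT it was 1.63 ± 0.29 higher (adjusted p = 0.0543, from 0.000578 to 0.245). The interaction of genotype and treatment for Bc1 was 1.27 ± 0.41 (adjusted p = 0.816, from 0.193 to 0.978). The low ends of these ranges came from dropping the farthest value in groups of wide spread, which by construction shrinks the spread. The next lowest adjusted p values from limma were 0.0144 against VEH-CD, 0.00827 against VERCUR-WT and 0.413 for the interaction. Other small and nuclear RNAs were listed after the data were seen. None of 6 was called by limma or by voom, 0 had an unadjusted p under 0.05, and their median log2 fold change was 0.12, from -0.0611 without VERCUR-CD 1 to 0.31 without VEH-WT 2. Rn7s1, the RNA of the signal recognition particle, had 213, 208 and 183 against 222, 239 and 284 (0.30, adjusted p = 0.687), and its reads cannot be told from those of Rn7s2, which had identical values.

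**Figure D3:**
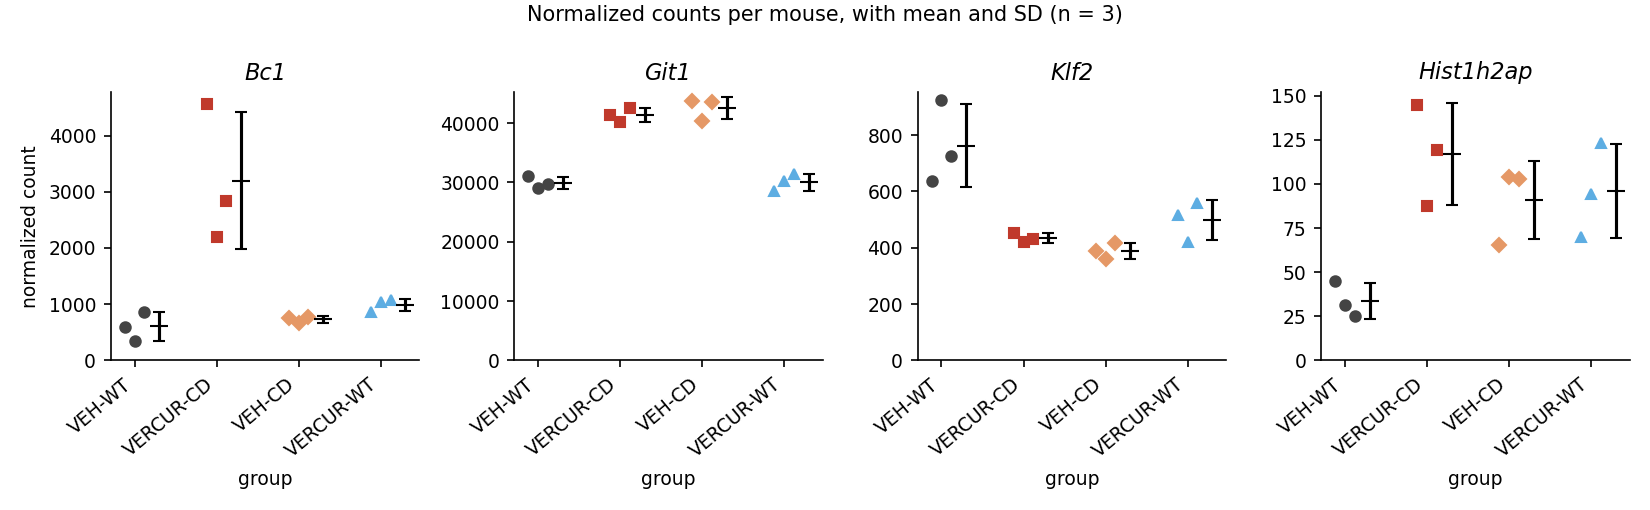
Normalized counts of Bc1, Git1, Klf2 and Hist1h2ap in each mouse of the 4 groups (points), with the mean and SD of each group (n = 3). Bc1 is high in the VERCUR-CD mice alone (2202 to 4564), Git1 is high in the CD mice of both treatments, Klf2 is highest in VEH-WT (637 to 925) and Hist1h2ap is lowest in VEH-WT (25.2 to 44.8).

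The genes lower in VERCUR-CD included 4 of 11 genes tested in a stretch of chromosome 2 (chr2:176798612-177509763) that holds Krüppel-type zinc finger genes in near-identical copies. Of the 11, 10 were under 0, 8 were lower at an unadjusted p under 0.05 and 7 were lower with groups that did not overlap. Over all genes, 0.146% were called lower, 4.76% were lower at such a p and 7.33% were apart downwards. The median log2 fold change of the 11 was -0.66, and the 10 include Gm14410 at -0.03 and Gm14414 at -0.0003. The stretch was chosen because it holds these 4 DEGs, which raises such counts. Gm14295 had 1031, 1156 and 1086 in VEH-WT and 689, 685 and 600 in VERCUR-CD (-0.73 ± 0.10, adjusted p = 0.00519). Gm14419 had 252, 309 and 250 against 75.9, 134 and 78.9 (-1.52 ± 0.24, adjusted p = 0.0153). Gm14403 had 191, 207 and 190 against 68.0, 105 and 78.9 (-1.23 ± 0.20, adjusted p = 0.0202). In each of the 3, the highest VERCUR-CD mouse was below the lowest VEH-WT mouse. Zfp970 had 349, 394 and 395 against 195, 251 and 168 (-0.90 ± 0.16, adjusted p = 0.0446). The other 6 mice gave a median of -0.57 for the 11 genes in VEH-CD against VERCUR-WT, with 10 lower. Of the 100-base stretches of the transcripts, 86.4% in Gm14419, 52.8% in Gm14295, 17.4% in Zfp970 and 4.95% in Gm14403 occur in other genes. Gm14419 and Gm14295 are among the genes that share most with each other, while Zfp970 and Gm14403 share most with genes outside the 4, so these counts are uncertain to differing degrees.

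The likeness extends to their promoters. RefSeq (GRCm38.p6) held windows of 250 bases before to 50 after the start for 12 of the 18 DEGs outside the deletion, among them Gm14295 (chr2:176798350-176798649), Zfp970 (chr2:177464492-177464791) and Gm14403 (chr2:177497976-177498275), all on the plus strand. They are shown because the windows of these called genes are nearly the same. Windows of the uncalled genes of the stretch were not compared, and a link between the windows and the change was not tested. Capitals mark bases unlike those of Gm14295 at the aligned position, 2 in Zfp970 and 15 in Gm14403.
Gm14295: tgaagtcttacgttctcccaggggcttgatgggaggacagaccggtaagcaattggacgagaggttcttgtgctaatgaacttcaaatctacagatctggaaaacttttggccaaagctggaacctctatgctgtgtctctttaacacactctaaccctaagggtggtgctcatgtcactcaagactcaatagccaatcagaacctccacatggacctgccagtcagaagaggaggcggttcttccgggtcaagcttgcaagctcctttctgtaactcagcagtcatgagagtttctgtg
Zfp970: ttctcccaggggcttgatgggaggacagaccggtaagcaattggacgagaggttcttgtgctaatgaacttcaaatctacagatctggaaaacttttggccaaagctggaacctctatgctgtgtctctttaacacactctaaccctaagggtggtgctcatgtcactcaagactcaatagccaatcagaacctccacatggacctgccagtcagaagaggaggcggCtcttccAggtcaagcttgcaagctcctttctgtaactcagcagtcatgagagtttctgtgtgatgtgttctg
Gm14403: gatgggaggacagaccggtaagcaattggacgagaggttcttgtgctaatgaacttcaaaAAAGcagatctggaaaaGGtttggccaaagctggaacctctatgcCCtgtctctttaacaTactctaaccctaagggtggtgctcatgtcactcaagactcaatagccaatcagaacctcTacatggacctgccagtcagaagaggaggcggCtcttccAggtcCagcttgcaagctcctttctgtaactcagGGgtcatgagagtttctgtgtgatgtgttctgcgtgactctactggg
Zfp970 and Gm14295 were 99.3% identical over 288 aligned bases, Gm14403 and Gm14295 94.5% over 273, and Gm14403 and Zfp970 95.4% over 285.

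Of the 372 genes tested whose symbol is Zfp and a number, a list that leaves out Gm14295, Gm14419 and Gm14403, 2 were called higher and 1, Zfp970, lower, and the median log2 fold change was 0.01. Zfp180, on chr7:24081924-24107713, had 3408, 3373 and 3576 in VEH-WT and 4898, 4848 and 4593 in VERCUR-CD (0.47 ± 0.06, adjusted p = 0.00299). Zfp991, on chr4:147132038-147180579, had 168, 122 and 151 against 238, 293 and 267 (0.86 ± 0.13, adjusted p = 0.0103). Both were higher in all VERCUR-CD mice, and 70.3% of the 100-base stretches of Zfp991 but none of Zfp180 occur in other genes. Without VERCUR-CD 3 the adjusted p of Zfp991 was 0.0715.

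Among enzymes and nuclear proteins, Dmgdh, the mitochondrial dehydrogenase that oxidizes dimethylglycine in choline breakdown, was higher at a low level. It had 19.1, 15 and 8.69 in VEH-WT and 52.4, 57.6 and 62.5 in VERCUR-CD (2.0 ± 0.29, adjusted p = 0.00744), and 51.4, 47.7 and 64.7 in VEH-CD against 11.9, 16.7 and 9.49 in VERCUR-WT. The CD mice were thus above the wild-type mice whichever group was treated. Without VERCUR-CD 3 its adjusted p was 0.0649. Lemd1, which encodes a LEM domain protein, had 426, 384 and 435 against 607, 603 and 646 (0.58 ± 0.09, adjusted p = 0.0202). Hist1h2ap, a histone H2A gene, had 44.8, 31.2 and 25.2 against 145, 87.2 and 119 (1.77 ± 0.28, adjusted p = 0.0179). It was low in VEH-WT alone, since VEH-CD had 65.1, 104 and 103 and VERCUR-WT 70.0, 94.5 and 123, and voom did not call it. Of its 100-base stretches, 92.2% occur in other H2A genes, and none of the other 14 histone genes was called by limma or by voom, with 0 at an unadjusted p under 0.05.

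Noncoding and little-described genes with few reads were also among the lower DEGs. Gm45351, a long noncoding RNA on chr7:9868880-9876966, had 20.2, 38.1 and 27.8 in VEH-WT and 0, 0 and 0 in VERCUR-CD. With the floor of 3 reads per library its VEH-WT mean of 28.7 was at least 10.5-fold higher. Of the 100-base stretches of its transcript, 77.1% occur in other genes, so its count is uncertain. VEH-CD had 0, 0 and 1.20 and VERCUR-WT 9.50, 13.9 and 21.6. Gm5784, on chromosome 12, had 70.6, 41.6 and 86.9 against 8.72, 8.99 and 7.70 (-2.77 ± 0.36, adjusted p = 0.00306). Both were low in all CD mice.

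Ighg2c, the heavy chain constant region of IgG2c made by B cells and plasma cells, had 273, 285 and 237 in VEH-WT and 106, 91.7 and 71.2 in VERCUR-CD (-1.57 ± 0.16, adjusted p = 0.000447). VEH-CD had 151, 125 and 104 and VERCUR-WT 233, 223 and 248, so all 6 CD mice were below all 6 wild-type mice. Ighm, the IgM constant region, was examined after its values were seen. It had 2049, 2124 and 2337 against 1283, 1101 and 812 (-1.05 ± 0.20) and missed the threshold with an adjusted p of 0.0722.

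Klf2 and Gadd45a, which respond to stress, activity and blood flow, were the DEGs nearest to the threshold beside Zfp970. Klf2, a Krüppel-like factor of endothelial and immune cells, had 637, 925 and 725 in VEH-WT and 454, 421 and 430 in VERCUR-CD (-0.79 ± 0.13, adjusted p = 0.0342). Gadd45a, induced by DNA damage and other stress, had 398, 558 and 422 against 298, 228 and 197 (-0.93 ± 0.16, adjusted p = 0.0429). In both, the VEH-WT mice lay above the other 9 mice, as in 1.43% of all genes. The VEH-CD mice had 387, 361 and 416 for Klf2 and 209, 265 and 228 for Gadd45a, and the VERCUR-WT mice 518, 421 and 560 and 290, 329 and 333.

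The calls outside the deletion differed in how far they depended on single mice. Leaving out any 1 of 12 mice took away 0 of the calls of Trim50, Gm45351, Ighg2c, Git1, Bc1, Zfp180, Gm5784 and Gm14295. It took away the call of Gm14419 and of Hist1h2ap for 4 mice (VEH-WT 2 and 3, VERCUR-CD 1 and 3), with adjusted p values from 0.0627 to 0.121 and from 0.0849 to 0.119. For Lemd1 and Gm14403 there were 5 such mice (VEH-WT 1, 2 and 3, VERCUR-CD 1 and 3), with 0.0608 to 0.169 and 0.0728 to 0.141. Zfp970 lost its call without any of 9 mice (all but VERCUR-CD 2, VEH-CD 1 and VEH-CD 2), with 0.0683 to 0.278. Klf2 lost it without any of 9 mice (all but VEH-WT 1, VERCUR-WT 2 and VERCUR-WT 3), with 0.0519 to 0.190, and Gadd45a without any of 11 mice (all but VERCUR-CD 1), with 0.0511 to 0.277. Calls of these genes also ended when only the 6 mice compared were fitted, where Dmgdh, Zfp991, Gm14419, Hist1h2ap, Lemd1, Klf2, Gadd45a and Zfp970 were not called and 10 of the 18 were. The calls outside the deletion numbered 10 without VEH-WT 2, 11 without VEH-WT 3 and 8 without VERCUR-CD 3. With the mean log2 level of striatal markers as a covariate, an alternative chosen after the data were seen, 15 of the 18 were still called, and Klf2, Gadd45a and Zfp970 were not.

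The 6 mice that did not enter the comparison allow the differences to be looked at again, since VEH-CD and VERCUR-WT share no mouse with VERCUR-CD and VEH-WT. In VEH-CD against VERCUR-WT, 27 genes were DEGs (0.158%), of which 11 lay outside the deletion. The 2 lists shared 6 genes outside the deletion (Trim50, Git1, Zfp180, Gm5784, Dmgdh and Gm45351), which are 33.3% of the 18 and 54.5% of the 11. Both comparisons used the same estimate of each gene's spread, from 1 fit of all mice, so the 2 sets of calls are not independent. Of the 18 genes, 16 had the same sign in both comparisons, and in the same 16 the groups did not overlap. The exceptions were Bc1 and Hist1h2ap (-0.43 and -0.07). Over all genes, 56.5% had the same sign and 1.73% were apart in the same direction in both. The 18 were already apart in the first comparison, so 1.73% is too low a background for them. In VEH-CD against VERCUR-WT alone, 5.1% of all genes were apart with VEH-CD lower, which is a background for the lower genes only. The share apart with VEH-CD higher was not counted, so genes such as Git1 and Dmgdh have no such background here. Where signs matched, sizes could differ. Git1 had 0.47 and 0.50, Zfp180 0.47 and 0.57, Gm5784 -2.77 and -2.64 and Dmgdh 2.0 and 2.04, whereas Ddn had 0.50 and 0.25, Zfp991 0.86 and 0.42, Klf2 -0.79 and -0.36 and Gadd45a -0.93 and -0.44.

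**Figure D4:**
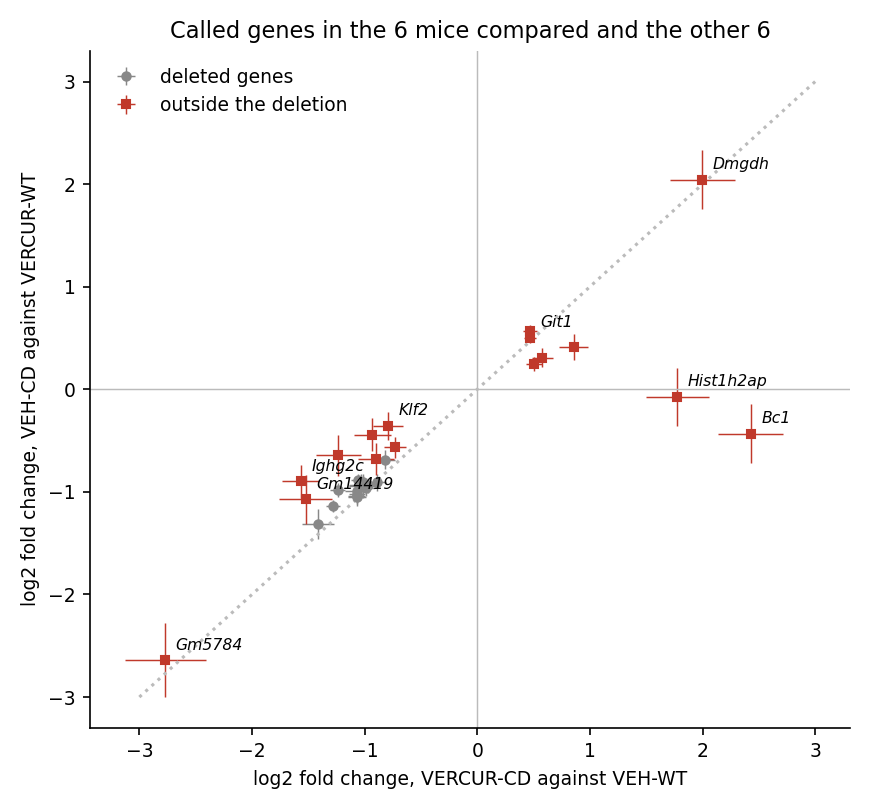
Log2 fold change in VERCUR-CD against VEH-WT (horizontal axis) and in VEH-CD against VERCUR-WT (vertical axis), which share no mouse, with 1 point per DEG, bars for the SE and a dotted line of equal change; Trim50 and Gm45351 are left out. The called deleted genes lie between -1.41 and -0.69 on both axes, Git1, Zfp180 and Dmgdh are alike on both, and Bc1 is at 2.43 on the first axis and -0.43 on the second.

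All 6 CD mice lay above all 6 wild-type mice in Trim50, Git1, Zfp180, Ddn, Dmgdh, Zfp991 and Lemd1 and below them in Gm45351, Ighg2c, Gm5784, Gm14295, Gm14419, Gm14403 and Zfp970. Over all genes such orders were found in 0.573% and 0.473%. VERCUR-CD against VEH-WT was what chose these genes, so only the place of the other 6 mice is independent of the choice. Between VERCUR-CD and VEH-CD, limma called 0 genes, with 605 (3.54%) at an unadjusted p under 0.05 and a smallest adjusted p of 0.159, and voom called 0. Between VERCUR-WT and VEH-WT, limma and voom also called 0, with 893 (5.22%) at an unadjusted p under 0.05 in limma. With the striatal covariate 1 gene passed between VERCUR-CD and VEH-CD, Bc1 (adjusted p = 0.0144).

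Genes of the activity-induced lists were under 0 in VERCUR-CD against VEH-WT in nearly all cases. The only 1 called was Klf2, which is also a factor of endothelial and immune cells, and its call was lost without any of 9 mice. Fos, Egr2 and Arc were not called. Of 24 immediate early transcription factors, 23 had a log2 fold change under 0, 13 were lower at an unadjusted p under 0.05, 13 were lower with groups that did not overlap, and 1, Klf2, was called, against 0.146% of all genes called lower and 7.33% apart. The median was -0.55. Klf6 was the member over 0, at 0.23, with an unadjusted p under 0.05 and groups that did not overlap, and was not called (adjusted p = 0.535). Egr2, a zinc finger factor of activity and myelination, had 527, 1346 and 980 in VEH-WT and 434, 242 and 299 in VERCUR-CD (-1.49 ± 0.52, adjusted p = 0.459). Fos, a subunit of AP-1, had 1965, 3081 and 2587 against 1410, 747 and 1335 (-1.16 ± 0.51, adjusted p = 0.562). In both genes every VEH-WT mouse was above every VERCUR-CD mouse, and VEH-WT 2 was the highest of all. The other mice also lay below every VEH-WT mouse for Fos, at 278, 1279 and 819 in VEH-CD and 1704, 596 and 1784 in VERCUR-WT. The list's median against VEH-WT was -1.0 in VEH-CD and -0.67 in VERCUR-WT, and all 3 of these comparisons share the VEH-WT mice. In VEH-CD against VERCUR-WT it was -0.35, and between VERCUR-CD and VEH-CD it was 0.28. Without VEH-WT 2 the median of VERCUR-CD against VEH-WT was -0.43.

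Of 19 activity-induced effectors, 18 were under 0, 7 had an unadjusted p under 0.05 and 0 were called by limma or by voom, with a median of -0.39, or -0.22 without VEH-WT 2. Arc, which drives receptor endocytosis at spines, had 20198, 34120 and 25465 against 16726, 8537 and 12694 (-1.09, adjusted p = 0.697), and Sik1, a kinase induced by cAMP, had 937, 1622 and 1180 against 757, 450 and 641 (-1.01, adjusted p = 0.333). VEH-WT 2 was again the highest mouse in both. Bdnf, the activity-regulated neurotrophin, had 1552, 2107 and 1446 against 1338, 1511 and 1302 (-0.28, adjusted p = 0.681), with groups that overlapped.

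The core of the cAMP response element (TGACGT, on either strand) lay in the RefSeq promoter windows of 8 of 20 immediate early transcription factors (40%) and 9 of 11 effectors (81.8%), against 12.4% of 12159 tested genes with a window and 8.37% of all 27025. The windows of Fos (chr12:85473640-85473939) and Egr2 (chr10:67537619-67537918), both on the plus strand of GRCm38.p6, are shown with this motif in capitals, since they are the members of the list described here. The match starts 66 bases before the start of Fos and 56 before that of Egr2, where it is on the other strand. A gene counted when any of its windows held the motif, so genes with several annotated starts, such as Egr2, had more chances of a match. A match is no evidence of binding.
Fos: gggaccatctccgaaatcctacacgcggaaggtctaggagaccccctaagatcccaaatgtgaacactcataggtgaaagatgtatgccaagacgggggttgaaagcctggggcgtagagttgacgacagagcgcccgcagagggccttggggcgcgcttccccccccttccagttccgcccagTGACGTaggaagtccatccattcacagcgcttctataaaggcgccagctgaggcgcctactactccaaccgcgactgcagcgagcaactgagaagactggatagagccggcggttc
Egr2: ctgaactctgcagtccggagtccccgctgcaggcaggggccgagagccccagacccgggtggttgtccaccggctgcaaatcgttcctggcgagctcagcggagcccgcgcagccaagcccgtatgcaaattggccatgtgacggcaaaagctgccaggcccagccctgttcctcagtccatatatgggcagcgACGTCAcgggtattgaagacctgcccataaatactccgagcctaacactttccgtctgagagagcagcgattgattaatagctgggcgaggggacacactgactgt

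Chaperones were also mostly under 0. Of 16 heat shock chaperones, 15 were under 0, 9 had an unadjusted p under 0.05 in that direction and 0 were called by limma or by voom, with a median of -0.23. Hspa1a, an inducible Hsp70, had 959, 1991 and 1299 in VEH-WT and 727, 761 and 715 in VERCUR-CD (-0.88 ± 0.19, adjusted p = 0.152), and Hspb1, a small heat shock protein, had 290, 513 and 416 against 245, 229 and 191 (-0.84 ± 0.18, adjusted p = 0.144). The VERCUR-CD mice were close together below a scattered VEH-WT group. Hspa1l, a testis-enriched member of low level, was the exception at 0.84. Of 17 genes of endoplasmic reticulum stress, 15 were under 0, 12 had an unadjusted p under 0.05 and 0 were called by limma or by voom, with a median of -0.23. Hspa5, the chaperone BiP, had 13553, 17815 and 14928 against 11734, 11073 and 10346 (-0.47 ± 0.12, adjusted p = 0.280), and Sdf2l1, its cofactor, had 493, 805 and 669 against 420, 367 and 342 (-0.78 ± 0.23, adjusted p = 0.374). Over all genes, 4.76% had an unadjusted p under 0.05 in this direction. VEH-WT 2 was the highest mouse in all 4 of these lower genes, and without it the medians were -0.16 for the heat shock chaperones and -0.20 for the endoplasmic reticulum stress genes. Against the same VEH-WT mice, the heat shock median was -0.18 in VEH-CD and -0.19 in VERCUR-WT. The endoplasmic reticulum stress median was -0.18 in VEH-CD and -0.09 in VERCUR-WT. In VEH-CD against VERCUR-WT the medians of the 2 lists were -0.05 and -0.08.

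**Figure D5:**
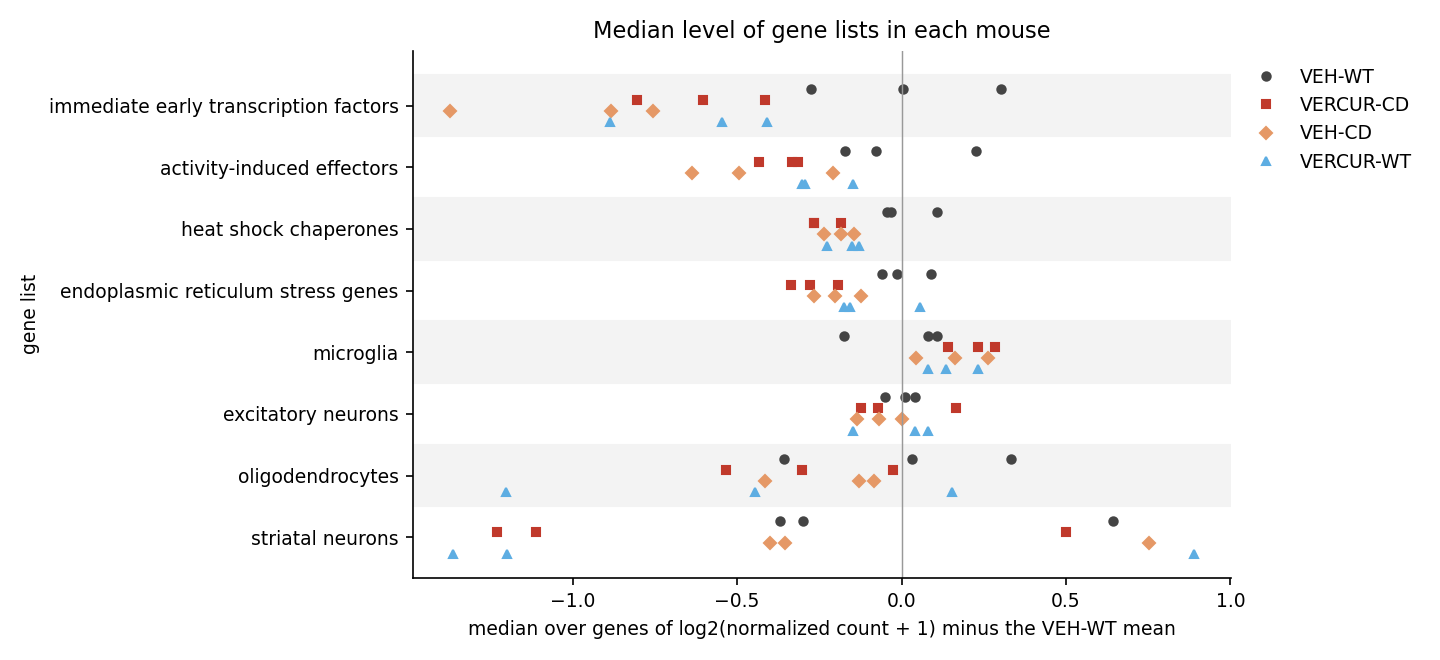
Median over the genes of a list of log2(normalized count + 1) minus the VEH-WT mean (horizontal axis), with 1 point per mouse and 1 line per list. The immediate early factors of all VERCUR-CD mice lie left of the VEH-WT mice, the microglial markers lie right of them, and the striatal neuron markers spread over both sides within each group.

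Feedback inhibitors and hormone-responsive genes showed smaller medians. The Dusp and Sprouty inhibitors of MAPK signaling had a median of -0.23 over 16 genes, the glucocorticoid-responsive genes -0.20 over 18 and the growth-arrest and p53 genes -0.12 over 13, with Gadd45a the only call among them. Without VEH-WT 2 the first median was -0.12, and without VEH-WT 1 the second was -0.39. At an unadjusted p under 0.05 stood 3, 6 and 5 of their members, all lower. Sgk1, a kinase induced by glucocorticoids, had 2464, 4605 and 5065 against 2166, 2300 and 2423 (-0.75, adjusted p = 0.410), and Dusp4, a MAPK phosphatase, had 401, 711 and 344 against 339, 380 and 324 (-0.41, adjusted p = 0.721). The 34 genes that the study lists for MAPK and PI3K-AKT signaling held 1 call, Gadd45a, against 0.146% of all genes called lower. At an unadjusted p under 0.05 stood 8 lower and 4 higher, and the median was -0.23. The study chose that list on these samples, so its direction is not independent evidence.

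No gene in the lists chosen around the 2 compounds was called. The L-type calcium channel list (11 genes of pore-forming and auxiliary subunits) and the gamma and TARP subunit list (7 genes) had 0 calls by limma or by voom. Their medians were 0.03 and -0.04, with 2 and 1 genes at an unadjusted p under 0.05. Not every gene in these 2 lists is a direct target of verapamil. Cacng6, a gamma subunit, had 46.0, 28.9 and 33.9 in VEH-WT and 44.5, 43.2 and 64.5 in VERCUR-CD (0.48, adjusted p = 0.567), and the groups overlapped. The NRF2 and antioxidant targets, which curcumin is known to induce, had 0 calls by limma or by voom in 20 genes, 3 with an unadjusted p under 0.05 and a median of 0.00. Nfe2l2, which encodes NRF2, had 614, 662 and 783 against 684, 705 and 659, a log2 fold change of 0.00 within an interval from -0.21 to 0.21. The 8 transporters of the blood-brain barrier had 0 calls by both, 3 with an unadjusted p under 0.05 and a median of 0.09.

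Microglial markers were mostly over 0, and no inflammatory gene was called. Of 12 microglial markers, 11 were over 0, 7 had an unadjusted p under 0.05 (3.92% of all genes in this direction) and 0 were called by limma or by voom, with a median of 0.22, or 0.13 without VEH-WT 2. Their sum was 17524 to 21029 in VEH-WT and 21898 to 23293 in VERCUR-CD, and so did not overlap. The median of these markers against VEH-WT was also over 0 in VEH-CD (0.15) and VERCUR-WT (0.16). These comparisons share the VEH-WT mice, and in VEH-CD against VERCUR-WT the median was -0.0024. Gpr34 and P2ry13, receptors of resting microglia, had 565, 410 and 547 against 657, 742 and 717 (0.49, adjusted p = 0.266) and 548, 320 and 570 against 615, 785 and 674 (0.57, adjusted p = 0.434). VEH-WT 2 was the lowest mouse in both. Of 15 inflammasome genes 10 were over 0, and 0 were called by limma or by voom. At an unadjusted p under 0.05 stood 3 higher and 1 lower. Their sum, in which abundant genes weigh most, went the other way without overlap, from 8967 to 9224 in VEH-WT and from 8366 to 8560 in VERCUR-CD. Their median log2 fold change was 0.16. This median was 0.0755 without VEH-WT 2, 0.25 without VEH-WT 3 and 0.11 without VERCUR-CD 1. Pycard, the adaptor ASC, had 111, 97.0 and 91.3 against 142, 112 and 153 (0.44, adjusted p = 0.452), and Nlrp3, the sensor, had 34.8, 27.7 and 34.8 against 46.2, 47.7 and 35.6 (0.40, adjusted p = 0.702). Both had groups that did not overlap, by a small margin. Aim2, a DNA sensor, had 0.16 (adjusted p = 0.872) and Txnip, which binds Nlrp3, had -0.10 (adjusted p = 0.895). The part of the microglial markers in the inflammasome values was not tested. NF-kappa B genes (14), interferon-responsive genes (23) and MHC genes (15) had 0 calls by limma or by voom and medians of -0.10, 0.01 and 0.01, with 2, 2 and 0 genes at an unadjusted p under 0.05. Without VERCUR-CD 1 the NF-kappa B median was -0.15.

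Markers of the other cell types also had 0 calls by limma or by voom. The 10 oligodendrocyte markers were all under 0 with a median of -0.29, but their sums overlapped (151886 to 239205 in VEH-WT, 128454 to 183157 in VERCUR-CD) and 0 had an unadjusted p under 0.05. Their median was -0.46 without VEH-WT 2, -0.13 without VEH-WT 3 and -0.16 without VERCUR-CD 3. The 10 interneuron markers were also all under 0, with a median of -0.14 and 3 at an unadjusted p under 0.05, and their sums did not overlap (68139 to 71720 against 63568 to 65750). The 8 border macrophage markers had 1 at an unadjusted p under 0.05 and a median of -0.05, with sums of 991 to 1122 against 752 to 922 that did not overlap. The 10 astrocyte markers had a median of 0.15 with 9 over 0, or 0.0603 without VEH-WT 2. The 10 striatal markers were all under 0 with a median of -0.56 and 0 at an unadjusted p under 0.05, and the median was -0.29 without VEH-WT 3, -1.07 without VERCUR-CD 1 and -0.33 without VERCUR-CD 2. Drd2, the dopamine receptor of striatal neurons, was at 544, 561 and 1429 in VEH-WT and at 1161, 64.8 and 49.1 in VERCUR-CD, so the spread within VERCUR-CD was larger than the difference between the groups. Neurotrophins and their receptors (8), circadian clock genes (19) and collagens, laminins and matrix enzymes (33) had 0 calls by limma or by voom, with 2, 2 and 2 genes at an unadjusted p under 0.05 and medians of 0.01, -0.04 and -0.02. Ntf3, a neurotrophin, had a log2 fold change of 0.69 (adjusted p = 0.562) and groups that overlapped. The 85 ribosomal protein genes had a median of 0.07 with 82 over 0, the 98 respiratory chain genes a median of 0.02, and 0 of either were called by limma or by voom, with 1 and 2 at an unadjusted p under 0.05.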

How the data were processed

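Cortical RNA of 12 mice, 3 per group, was sequenced by the authors, and the study describes the replicates as separate mice. Per the submitters' processing notes, FastQC and STAR 2.5.3a with GRCm38 were used; the counting program and annotation are not given in the sources used here. The authors deposited normalized counts per gene and mouse (reads divided by 1 factor per sample). The deposited tables of relative expression and of the authors' own comparisons hold their findings and were not used. No column belonged to other samples (0 columns). In each mouse, 100% of values under 60 were whole multiples of 1 step within 0.1 of a step, which gave the depth (40290000 to 56480000 reads) and the whole reads used for voom.

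Values were transformed as log2(normalized count + 1), where 1 is the pseudocount, for the 17111 genes of 17202 with a mean of at least 10. All 12 mice entered 1 linear model of limma 3.58.1 (R 4.3.3) with 4 group means and an intensity trend, and Benjamini-Hochberg adjustment was applied to its two-sided p values. A DEG passed an adjusted p of 0.05 and changed by more than 25% (a fold under 0.75 when lower). No single-gene permutation test is given, since 3 mice against 3 cannot go below p = 0.1. SE is from limma, and intervals are 95%. Positions are from GENCODE M21 and promoters from RefSeq (GRCm38.p6). The fit was tested on simulated data with 200 changed genes.

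Named genes were the deleted and flanking genes, the DEGs outside the deletion (largest changes and smallest adjusted p, up to 10 in each direction), for each list the called members or the 2 of largest change, and genes the study plots or tabulates. The genes, lists and tests were chosen with earlier results of these data known, and some further list members were named after their values were seen. Alternatives covered the pseudocount, filter, scaling, mice fitted, trend, replicate block, CV, thresholds and leaving out each mouse. limma voom and a striatal marker covariate were added after the data were seen.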

Additional observations from a re-analysis of the deposited data

How the results depend on the processing

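The 34 DEGs numbered between 27 and 39 under the alternatives to the fit, except when the farthest value was dropped in each group with a high CV (coefficient of variation), which by construction shrinks the spread. That gave 840 DEGs, 821 outside the deletion, 615 DEGs in VEH-CD against VERCUR-WT, 488 genes outside the deletion with the same sign there and 65 named genes called. With only the 6 mice compared, 11 DEGs lay outside the deletion, 10 of them among the 18, and 10 had the same sign. Leaving out each mouse gave 24 to 39 DEGs, 8 to 23 outside the deletion, 7 to 20 with the same sign, 21 to 29 in VEH-CD against VERCUR-WT, 24 to 34 named genes, 16 WBSCR genes called and WBSCR medians from -1.06 to -0.98. Same-sign counts were 9 without VEH-WT 2, 10 without VEH-WT 3 and 7 without VERCUR-CD 3. Same-numbered mice deviated with correlations of 0.036, -0.239 and -0.263, so the numbers do not pair the samples; the replicate block gave 31 DEGs, 15 outside the deletion. Over the single named genes and these alternatives, 1986 values kept sign and side of the threshold, 75 lost the call, 42 gained one and 18 turned sign. Signs turned for genes near 0. Nfe2l2 was at 0.0006 with median centring, 0.0081 with quantile normalization, 0.0010 with the striatal covariate, 0.0983 without VEH-WT 3 and 0.0245 without VERCUR-CD 3, down to -0.0766 without VEH-WT 1. Hip1 was at 0.0005 and 0.0252 under the first 2 of these, 0.0668 without VEH-WT 3 and 0.0545 and 0.0412 without VERCUR-CD 1 and 3, down to -0.0975 without VERCUR-CD 2. Rcc1l was at -0.0078 with voom, -0.0498 and -0.0130 without VEH-WT 2 and 3, and -0.0870 and -0.0321 without VERCUR-CD 1 and 3, up to 0.1318 without VERCUR-CD 2. Nsun5 was at 0.0329 without VEH-WT 2 and 0.0686 without VERCUR-CD 2, down to -0.0725 without VERCUR-CD 1, and Gtf2ird2 at 0.0239 without VERCUR-CD 2, down to -0.1239 without VERCUR-CD 3. The planned edgeR and DESeq2 fits were not run, and voom on the recovered whole reads stands in for them. Genes of low counts, such as Gm45351, allow limits only.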

Other observations

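Several genes just outside the threshold of VERCUR-CD against VEH-WT, named after their values were seen, had groups that did not overlap. Pcdhb3, a clustered protocadherin of neuronal surface identity, had 261, 268 and 261 normalized counts in VEH-WT and 181, 173 and 170 in VERCUR-CD (log2 fold change -0.59 ± 0.11 SE, limma with Benjamini-Hochberg adjusted p = 0.0526). The VEH-CD and VERCUR-WT mice were near the VERCUR-CD level, with 155, 193 and 176 and 177, 177 and 203, so VEH-WT was the group apart. None of the 57 clustered protocadherins tested was called by limma or by voom, 16 had an unadjusted p under 0.05, 13 of them lower, and their median was -0.05. Ubqln4, a proteasome shuttle factor, had 9905, 9250 and 9511 against 10994, 11782 and 11689 (0.27 ± 0.05, adjusted p = 0.1). It was at 0.26 in the other 6 mice, VEH-CD against VERCUR-WT.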
